A study of Mus musculus with 36 samples.

Results

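Endothelial cells of sham-operated mouse hearts were compared between day 1 and day 14 after the operation. The cells came from SORT-seq plates, in which single cardiac cells are sorted into the 384 wells of a plate and every captured mRNA carries a random barcode, the unique molecular identifier (UMI), so that the value of a gene in a well is a number of UMIs. A well was taken as endothelial when it held at least 1000 UMIs without mitochondrial and spike-in genes, when Pecam1, Cdh5, Egfl7, Kdr, Emcn, Cav1, Ly6c1 and Fabp4 together made at least 0.6% of them, and when 8 macrophage genes stayed under 1% and 5 fibroblast genes under 2%. These 8 endothelial genes chose the wells, so their levels are given below as a description only. The rule left 165 endothelial wells on 8 plates, out of 751 wells with at least 1000 UMIs on 9 sham plates and 3146 such wells in the whole series. Near the limit, 12 wells of the sham plates lay between 0.4% and 0.6%, the highest of them at 0.54%, and 12 endothelial wells lay between 0.6% and 0.8%.

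All plates compared held cells from the left ventricles of C57BL/6 mice, labelled as males of 8 weeks. The tissue label names the infarcted region for the sham hearts too, although these had no infarct. All mice had a sham operation and neither ischemia-reperfusion nor a myocardial infarction, the injuries of the other plates, and no unoperated heart was analysed here. Day 1 sham had 4 plates, replicates 1 to 4, with 24, 27, 34 and 18 endothelial wells (103 in all). Day 14 sham had 4 plates in the gene comparison, replicates 1, 5, 7 and 8, with 28, 18, 8 and 8 endothelial wells (62 in all). Replicate 6 of day 14 had 2 endothelial wells and was used only for the share of wells. Replicate 2 was left out because it repeated replicate 7: the UMI totals of wells at the same position had a Spearman correlation of 0.910 between the 2 plates, against at most 0.243 for any other pair, and 8 of 8 compared wells matched in their gene profile, against at most 1 well in any other pair. Replicates 3 and 4, with 1 and 0 endothelial wells, were left out as well. Values per plate are given below in this order, replicates 1, 2, 3 and 4 at day 1 and replicates 1, 5, 7 and 8 at day 14. The mouse behind each plate is not given, plates of a day may share a mouse, and day cannot be told apart from the mice and the preparation of that day, so p-values measure the spread between plates and may be too small.

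The endothelial UMIs summed to 118726, 105633, 255505 and 94760 at day 1 and to 141800, 77616, 19322 and 32591 at day 14. The median well held 3133 UMIs from 1595 genes at day 1 and 3021.5 UMIs from 1555.5 genes at day 14. Day 14 replicates 7 and 8 were therefore the shallowest sums, each from 8 wells. Levels are given as UMIs per 1000000 endothelial UMIs of a plate (CPM), and they are not divided by gene length, since SORT-seq tags the 3′ ends of transcripts.

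Marker levels describe the class and do not test its label, since 8 of the 16 endothelial markers chose the wells. All 16 were detected and together made 2.63 to 3.26% of the endothelial UMIs at day 1 and 2.05 to 2.67% at day 14, against 0.173 to 0.325% in the cardiomyocyte wells of the same plates, which had to hold under 0.6% of those 8. Pecam1, an adhesion receptor of endothelial junctions, had a UMI in 88 of 103 wells at day 1 and 50 of 62 at day 14, and Cdh5, which encodes VE-cadherin, in 96 and 52 wells. Fibroblast markers made 0.0185 to 0.133% at day 1 and 0.0311 to 0.0876% at day 14. Mural markers made 0.0442 to 0.12% and 0.0184 to 0.0683%. Macrophage markers, with Adgre1 at 0, stayed at 0.0517% or less except on day 14 replicate 8, where they reached 0.276%. T or NK cell markers (4 of 6 at 0) stayed at 0.00317% or less. Of the erythrocyte markers 5 of 6 were at 0, and the remaining one, Beta-s, made up to 0.0966%. Cardiomyocyte markers were the exception, with 1.30 to 1.85% at day 1 and 1.52 to 4.32% at day 14.

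Endothelial cells line every vessel of the heart, and most of those in the ventricular wall belong to capillaries that run along the muscle fibres. Cardiac capillary cells are known for taking up fatty acids and handing them to the cardiomyocytes, for which they use the scavenger receptor Cd36, the fatty acid binding protein Fabp4 and Gpihbp1, which anchors lipoprotein lipase at the vessel wall. They also answer systemic signals such as glucocorticoids and inflammatory cytokines, which an operation releases, by changing the genes of adhesion, antigen presentation and the acute phase.

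The genes lower at day 1 in the endothelial wells were led by Actc1, Atp5f1 and Eno3, and the higher ones included Gm10785, Gm17821 and Kcnq1ot1. A set of 11 cardiomyocyte genes made 1.14 to 1.53% of the endothelial UMIs at day 1. At day 14 it made 3.30 to 3.91% on 3 of the 4 plates. The set holds Actc1, Myl2, Tpm1, Tnnt2 and Mb, which are lower genes themselves, so its share is not independent of them. Of 1963 genes tested (edgeR quasi-likelihood test, Benjamini-Hochberg adjusted p under 0.05), 55 differed, or 2.80%, and are called below. Of these, 15 were higher at day 1 (0.764% of the genes tested) and 40 were lower (2.04%). The log2 fold changes, given throughout as day 1 against day 14, ran from 0.98 to 2.36 for the higher genes and from −2.32 to −0.84 for the lower ones, and the median over all genes tested was 0.0094. Of the 55, 2 were genes of the endothelial rule, Cdh5 and Ly6c1. At an unadjusted p under 0.05, 122 genes were higher (6.21%) and 177 lower (9.02%). The 2 groups of plates did not overlap in CPM for 178 of the genes tested (9.07%) and for 34 of the 55.

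The number of differing genes depended on single plates. It was 12, 22, 13 and 7 without day 1 replicates 1, 2, 3 and 4, and 33, 6, 98 and 20 without day 14 replicates 1, 5, 7 and 8. It was 10, of which 4 were lower at day 1, when the endothelial wells with at least 5% cardiomyocyte genes were left out.

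**Figure D1:**
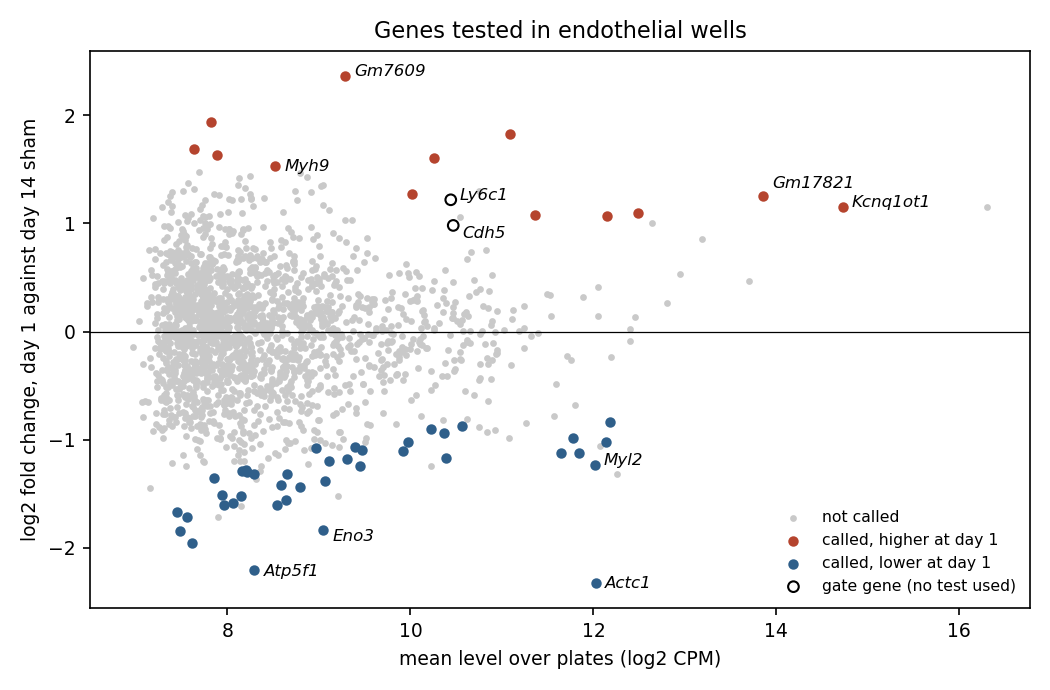
Log2 fold change of each of the 1963 genes tested, day 1 sham against day 14 sham (vertical axis), against its mean level over the 8 plates in log2 CPM (horizontal axis). Red points are genes higher at day 1, blue points genes lower at day 1, grey points genes that did not pass the test, and the 2 open circles are genes of the endothelial rule. The 40 lower genes are led by Actc1 and Atp5f1, and the higher ones include Kcnq1ot1 and Gm17821, which are among the most abundant transcripts.

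Actc1, which encodes the cardiac α-actin of the sarcomere, gave the smallest p of all genes. Its CPM were 1019, 1174, 994 and 707 at day 1 and 4104, 6365, 2846 and 7303 at day 14. Every day 14 plate lay above every day 1 plate, and a UMI was present in 84 of 103 wells at day 1 and in 60 of 62 at day 14. The means were 974 ± 195 and 5155 ± 2042 CPM (SD, n = 4 plates each), and the log2 fold change was −2.32 ± 0.27 (SE, edgeR adjusted p 6.82e-06). The gene lies at chr2:114047282-114053548 on the minus strand (GRCm38).

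Actin genes of muscle are classic targets of serum response factor, which binds a DNA element called the CArG box. The 250 bases upstream of the RefSeq start of Actc1, chr2:114052876-114053125 on the minus strand of GRCm38.p6, are shown because Actc1 leads the comparison. They lie inside the GENCODE span of the gene given above, which starts further upstream. They hold 1 match, in capitals below, to the CArG box searched on both strands. Of 32851 RefSeq promoters of this length, 482 (1.47%) hold such a match. It is a description of the sequence, and no binding was measured.
Actc1: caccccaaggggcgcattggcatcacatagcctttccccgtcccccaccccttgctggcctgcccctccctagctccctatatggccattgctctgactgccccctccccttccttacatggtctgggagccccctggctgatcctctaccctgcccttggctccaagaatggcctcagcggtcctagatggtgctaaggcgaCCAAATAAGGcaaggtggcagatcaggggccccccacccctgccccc

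Atp5f1 and Eno3 followed. Atp5f1, a subunit of the mitochondrial ATP synthase, had 67.4, 75.7, 102 and 52.8 CPM at day 1 and 360, 618, 259 and 184 CPM at day 14. Its log2 fold change was −2.21 ± 0.37 (edgeR adjusted p 0.00234). Eno3, the muscle form of the glycolytic enzyme enolase, had 84.2, 199, 176 and 201 CPM at day 1 and 348 to 767 CPM at day 14. Its log2 fold change was −1.84 ± 0.33 (edgeR adjusted p 0.0048). Neither gene overlapped between the days.

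Sarcomere genes stood beside Actc1. Myl2, the regulatory light chain of ventricular myosin, had 1887, 1789, 1918 and 1203 CPM at day 1 and 6537, 4058, 2277 and 3713 CPM at day 14. Its log2 fold change was −1.24 ± 0.28 (edgeR adjusted p 0.0187). Tpm1, the tropomyosin that covers actin filaments, had 1137 to 1594 CPM at day 1 and 1863 to 4213 CPM at day 14. Its log2 fold change was −1.12 ± 0.25 (edgeR adjusted p 0.0187). For both genes the lowest day 14 plate was replicate 7, and it lay just above the highest day 1 plate.

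The other 5 leading genes lower at day 1 were Ndufab1, Atp5g3, Hspb6, Cdc34 and Tuba4a. Ndufab1, an acyl carrier protein that is part of respiratory complex I, had a log2 fold change of −1.61, and Atp5g3, which encodes the c subunit of ATP synthase, one of −1.17. Hspb6, a small heat shock protein of muscle, had a log2 fold change of −1.56, with 144 ± 43.6 CPM at day 1 and 456 ± 242 CPM at day 14. Cdc34, a ubiquitin-conjugating enzyme, stood at 42.2 to 67.4 CPM at day 1 and 141 to 258 CPM at day 14. Tuba4a, an α-tubulin, was the only one of these 10 whose groups overlapped, since day 14 replicate 7, at 51.8 CPM, lay within the day 1 range of 27.4 to 109 CPM. Without the wells at 5% cardiomyocyte genes these 5 lost their calls, with log2 fold changes of −0.89 for Ndufab1, −0.63 for Atp5g3, −1.33 for Hspb6, −1.83 for Cdc34 and −1.34 for Tuba4a (edgeR adjusted p 0.0544 to 0.409).

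Leaving out any 1 of the 8 plates did not end the call of Actc1 (log2 fold changes −2.51 to −2.14), Atp5f1 (−2.44 to −1.82) or Eno3 (−2.07 to −1.62). The other 7 leading lower genes lost their calls without day 1 replicate 4 and also without day 14 replicate 5, where their log2 fold changes were −1.94 to −0.96. With all groups of the series in 1 fit, Atp5f1 was the only gene past the threshold (log2 fold change −2.11, edgeR adjusted p 0.00877), and Actc1 was at −2.20 with an adjusted p of 0.388.

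**Figure D2:**
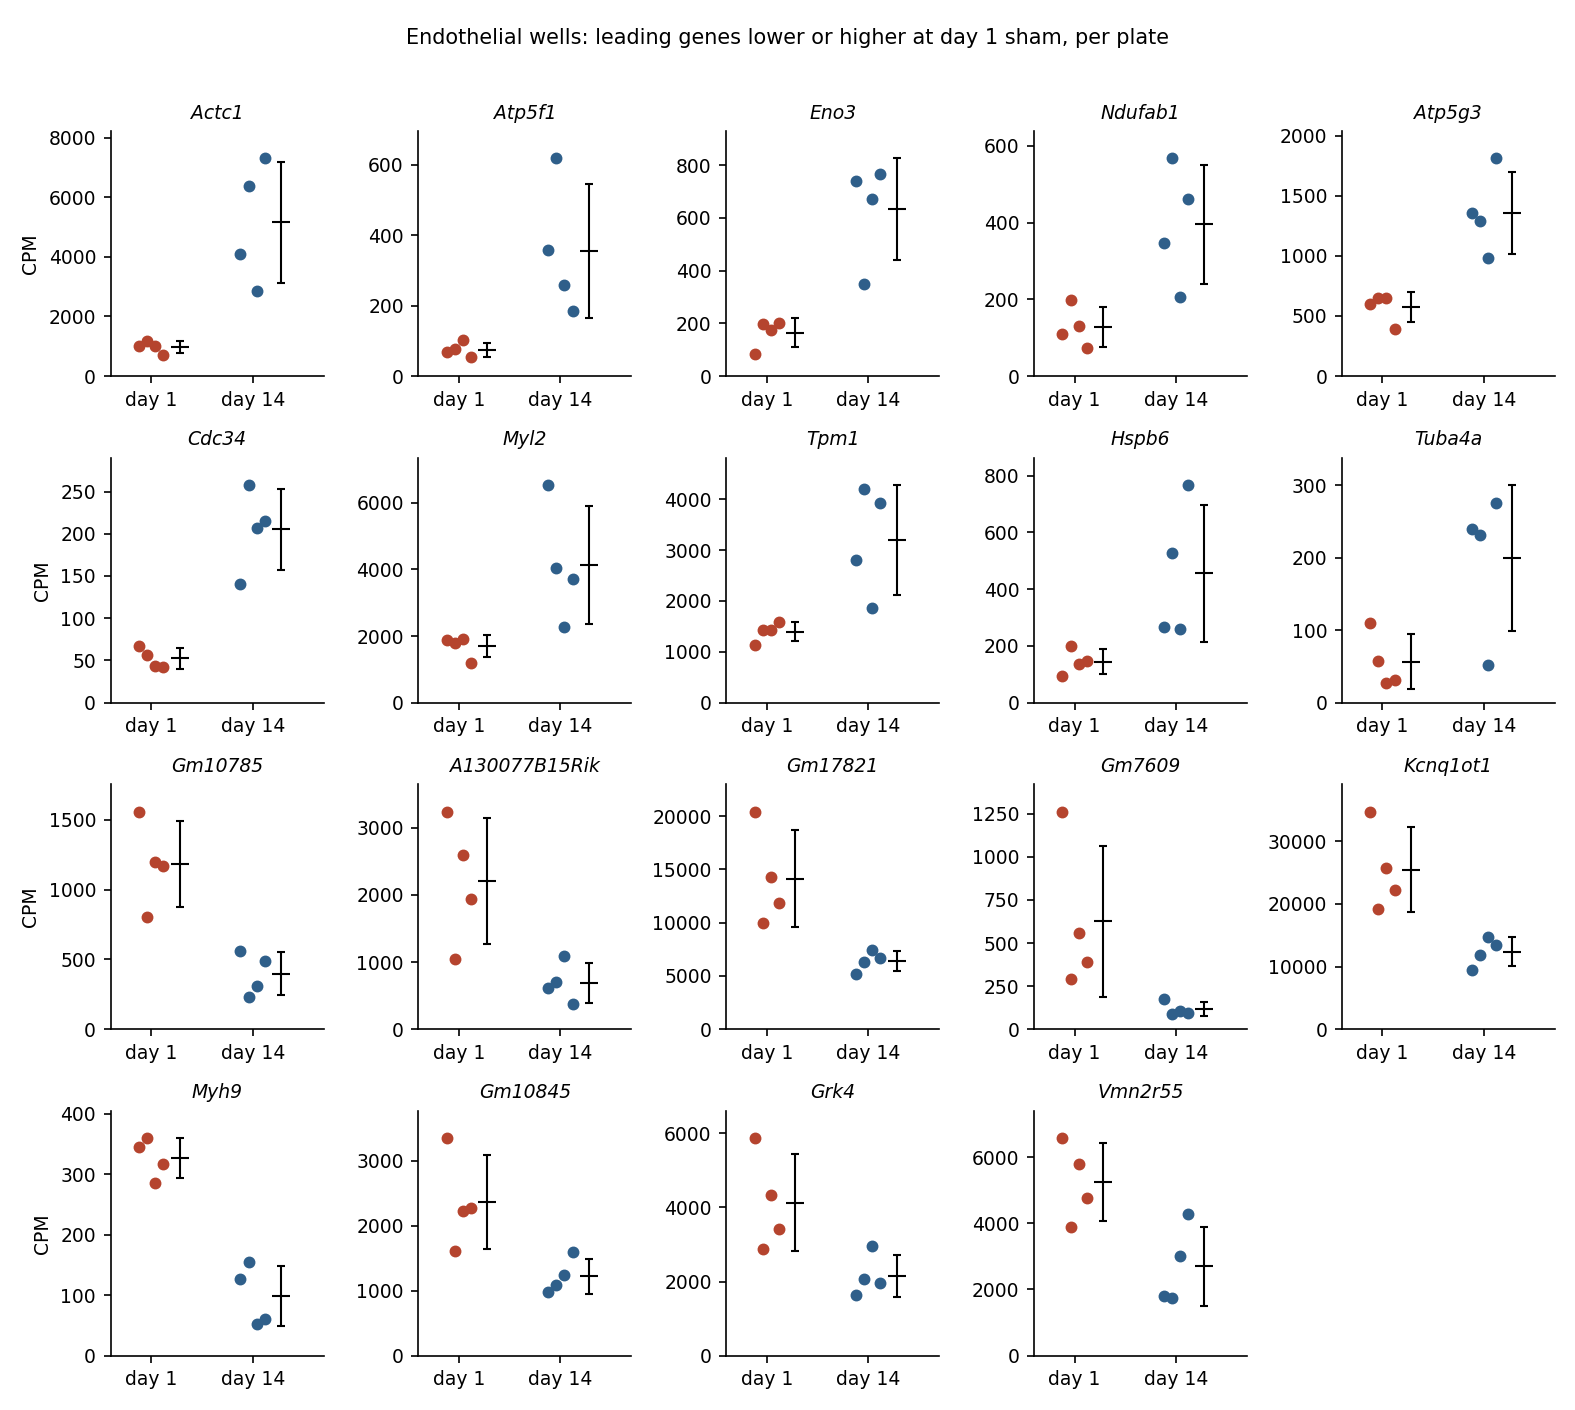
CPM per plate of the 10 leading genes lower at day 1 (top 2 rows) and of leading genes higher at day 1 (bottom 2 rows), each panel with its own axis from 0. Red points are the 4 day 1 plates, blue points the 4 day 14 plates, and the bars are the mean and SD. In the lower genes the day 14 plates spread more widely than the day 1 plates, as for Actc1 with 2846 to 7303 against 707 to 1174 CPM.

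Among the other 30 lower genes, picked here by name after their values were seen, stood Tnnt2, Des, Myoz2, Myom2 and Trdn of the contractile apparatus, the oxygen store Mb, the mitochondrial creatine kinase Ckmt2 and the enzymes Mdh1, Idh3b, Suclg1 and Acadm. Gnas, Azin1, Tsnax and Rpsa were also among these 30. In the cardiomyocyte wells they stood at 0.36, 0.29, 0.34 and 0.47 times their endothelial level. Of the 40 lower genes, 30 were more than 2 times higher in the cardiomyocyte wells of the same plates than in the endothelial wells. Of the 13 higher genes outside the endothelial rule, 0 were, and of all 1963 genes tested, 199 were (10.1%).

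The share of cardiomyocyte genes in the endothelial wells was measured with the 11 genes used to recognise cardiomyocyte wells. Of these, Actc1, Myl2, Tpm1, Tnnt2 and Mb are lower genes themselves, so the share is not independent of them. The 11 genes made 1.14, 1.24, 1.53 and 1.16% of the endothelial UMIs at day 1 and 3.79, 3.91, 1.33 and 3.30% at day 14. Wells with at least 5% of these genes numbered 3 of 103 at day 1 and 14 of 62 at day 14. They were on day 14 replicates 1, 5 and 8, with 7, 4 and 3 wells, and day 14 replicate 7 had 0 and lay within the day 1 range. In cardiomyocyte wells 14 cardiomyocyte markers made 8.76 to 15.0% of the UMIs.

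On day 14 replicate 7, where the 11 genes made 1.33%, Actc1 stood at 2846 CPM, against at most 1174 at day 1. The ratio of Actc1 to Myl2 in the endothelial wells was 0.54, 0.66, 0.52 and 0.59 at day 1 and 0.63, 1.57, 1.25 and 1.97 at day 14. In the cardiomyocyte wells of the same plates it was 0.92, 0.53, 0.71 and 0.61 at day 1 and 0.86, 1.55, 1.98 and 1.47 at day 14. Day 14 replicate 1 was the lowest of its day in both classes of wells. Which cells the Actc1 UMIs of the endothelial wells came from was not tested.

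Without the wells at 5% cardiomyocyte genes, a filter that uses Actc1, Myl2 and Tpm1 themselves, Actc1 was still called, at a log2 fold change of −1.60 (edgeR adjusted p 0.000866). Atp5f1 was too sparse to be tested in this fit. Myl2 then stood at −0.45, Tpm1 at −0.58 and Eno3 at −1.01, with edgeR adjusted p of 0.55, 0.379 and 0.31. This fit called 10 of 1763 genes (0.567%), 6 higher and 4 lower at day 1, and 7 of them were called with all wells. The 4 lower genes were Actc1, Azin1, Pcp4l1 and Actg1. The 6 higher genes were Gm10845, Lpl, Aplf, Vmn2r55, Gm10785 and Myh9. Lpl, which encodes lipoprotein lipase, was at a log2 fold change of 1.12 (edgeR adjusted p 0.0258) in this fit and of 0.41 (adjusted p 0.486) with all wells. With the cardiomyocyte gene share of each plate as a covariate, 2 genes were called, the rule genes Dcn and Ly6c1, and Actc1 was at −1.50 (edgeR adjusted p 0.167). This covariate counts Actc1 itself.

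**Figure D3:**
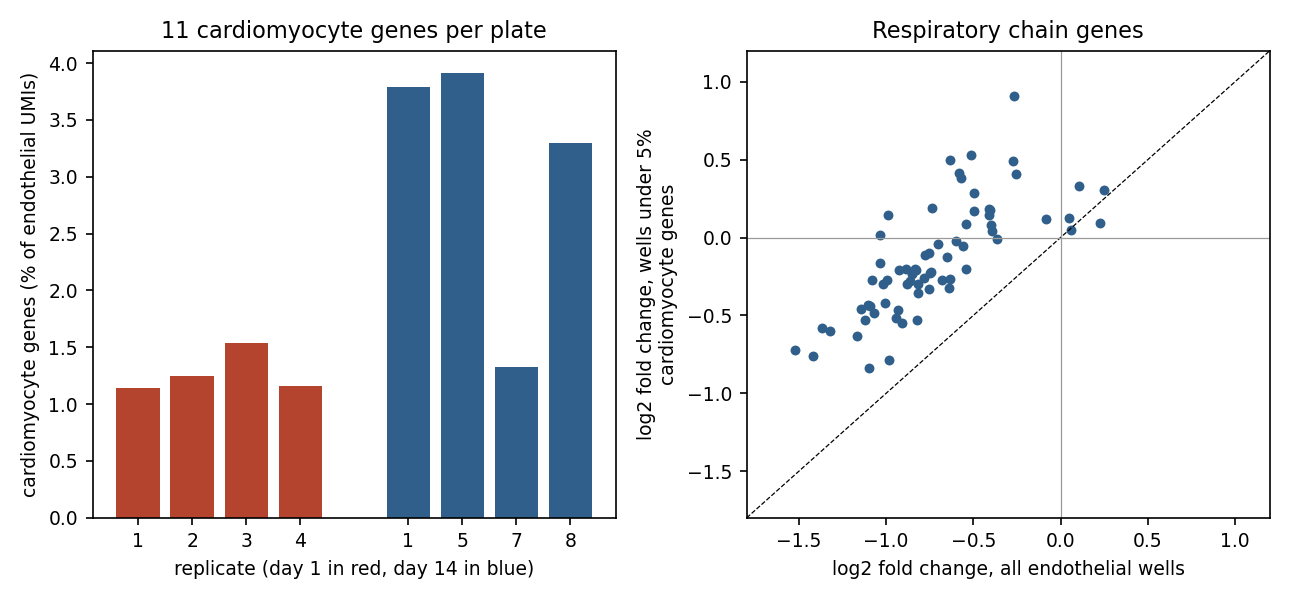
Left, the share of endothelial UMIs from 11 cardiomyocyte genes in each plate, in percent, with day 1 in red and day 14 in blue. Right, log2 fold changes (day 1 against day 14) of the 69 respiratory chain genes tested in both fits, with all endothelial wells on the horizontal axis and without the wells at 5% cardiomyocyte genes on the vertical axis, and the dashed line where both are equal. Day 14 replicates 1, 5 and 8 stand at 3.30 to 3.91% and the other plates at 1.14 to 1.53%, and 61 of the 69 genes lie nearer to 0 on the vertical axis than on the horizontal axis.

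The respiratory chain, the protein complexes of the inner mitochondrial membrane that oxidise NADH and make ATP, was the gene list with the most differing members. Of 84 nuclear-encoded members listed, 72 were tested, and 8 were lower and 0 higher at day 1, beside a background of 2.04% lower. At an unadjusted p under 0.05, 47 were lower and 0 higher, beside 9.02% lower and 6.21% higher over all genes tested. Their median log2 fold change was −0.78, with 5 of 72 above 0, against 0.0094 for all genes tested. ATP synthase had 5 of 15 tested subunits among them, complex I 2 of 33 and succinate dehydrogenase 1 of 3, while the cytochrome bc1 complex (8 tested) and cytochrome c oxidase (13 tested) had 0. Beside Atp5f1 and Atp5g3, Sdhb, the iron-sulfur subunit of succinate dehydrogenase, had a log2 fold change of −1.42 (edgeR adjusted p 0.0438). Atp5a1, the catalytic α subunit of ATP synthase, had one of −0.94 (edgeR adjusted p 0.0438). Without the wells at 5% cardiomyocyte genes Sdhb was at −0.76 and Atp5a1 at −0.52, with edgeR adjusted p of 0.534 and 0.535. Leaving out 1 plate at a time, Sdhb lost its call in 7 of 8 fits and Atp5a1 in 6 of 8.

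Summed over all listed members with a UMI, tested or not, the respiratory chain made 1.93, 2.03, 2.19 and 1.71% of the endothelial UMIs at day 1 and 4.35, 3.61, 1.96 and 3.45% at day 14. The 3 day 14 plates with more cardiomyocyte RNA were the 3 high ones, and replicate 7 lay within the day 1 range. Without the wells at 5% cardiomyocyte genes, the median of the 69 tested members was −0.20. That fit called 0 of them, which is near its background of 0.227% lower. In the cardiomyocyte wells, where the same genes made 5.03 to 9.33% of the UMIs, the median was −0.03 and 0 of 77 were called, near the background of 0.743% there.

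The genes higher at day 1 were mostly non-coding. Of the leading ones, 6 are annotated as antisense transcripts, long intergenic non-coding RNAs or pseudogenes. Kcnq1ot1, the antisense RNA of the imprinted Kcnq1 locus (chr7:143203458-143296549, minus strand, GRCm38), had 34761, 19218, 25718 and 22298 CPM at day 1 and 9401, 11853, 14750 and 13470 CPM at day 14. The groups did not overlap, and the log2 fold change was 1.15 ± 0.25 (edgeR adjusted p 0.0147). Gm17821, a processed pseudogene at chr12:67658527-67669276 (minus strand), had 20442, 9997, 14258 and 11862 CPM at day 1 and 5141, 6300, 7453 and 6720 CPM at day 14. Its log2 fold change was 1.25 ± 0.25 (edgeR adjusted p 0.0115). Both were present in nearly every well, Kcnq1ot1 in 103 of 103 and 62 of 62 and Gm17821 in 103 and 61.

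Other members of this set were less abundant. Gm10785, an antisense transcript on chromosome 16, had 1558, 805, 1198 and 1171 CPM at day 1 and 557, 232, 311 and 491 CPM at day 14 (log2 fold change 1.60 ± 0.30, edgeR adjusted p 0.00671). A130077B15Rik, a long intergenic RNA on chromosome 10, was at 1041 to 3243 CPM at day 1 and 368 to 1087 CPM at day 14, so 1 plate of each day overlapped. Gm7609, a pseudogene on chromosome 1, gave the largest log2 fold change, 2.36 ± 0.47 (edgeR adjusted p 0.0147), with 293 to 1263 CPM at day 1 and 90.2 to 176 CPM at day 14. Gm10845 had 2369 ± 721 CPM at day 1 and 1225 ± 269 at day 14. Reads of pseudogenes and antisense transcripts can come from a related copy or from the opposite strand, and how the counting treated them is not given, so the source of these UMIs is uncertain. Without the wells at 5% cardiomyocyte genes Gm10785 and Gm10845 were still called, and Kcnq1ot1 (1.36, edgeR adjusted p 0.093), Gm17821 (1.48, 0.304), Gm7609 (2.48, 0.162) and A130077B15Rik (1.79, 0.415) were not.

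These 6 transcripts were present in the other wells of the plates as well. They made 6.46, 3.30, 4.66 and 3.99% of the endothelial UMIs at day 1 and 1.69, 2.03, 2.49 and 2.27% at day 14. In the cardiomyocyte wells they made 0.82, 3.42, 1.73 and 1.04% at day 1 and 1.23, 0.919, 0.228 and 0.302% at day 14. In wells with under 200 UMIs, which are too shallow to be called cells, they made 12.7, 13.4, 12.2 and 3.58% at day 1 and 3.24, 1.87, 1.92 and 2.36% at day 14. The ratio of Gm17821 to Kcnq1ot1 ran over the plates from 0.499 to 0.588 in endothelial wells, 0.534 to 0.694 in cardiomyocyte wells and 0.444 to 0.604 in the shallow wells. It also differed within plates, as on day 14 replicate 8 with 0.499, 0.694 and 0.592. Rn45s, the precursor of ribosomal RNA, made 7.35, 5.82, 8.33 and 9.07% at day 1 and 5.49, 1.17, 6.83 and 1.02% at day 14 (edgeR adjusted p 0.486). With Rn45s left out of the counts, 55 genes were called and all 34 named genes kept their direction and their side of the threshold. The part of the RNA of the shallow wells in the differences of the endothelial wells was not tested.

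Grk4 and Vmn2r55 are annotated as protein-coding and overlapped between the days. Grk4, a kinase of G protein-coupled receptors, had 2887 to 5871 CPM at day 1 and 1643 to 2950 CPM at day 14 (log2 fold change 1.06 ± 0.26, edgeR adjusted p 0.0302). Vmn2r55, a member of the large family of vomeronasal receptors, had 3881 to 6570 CPM and 1739 to 4265 CPM (1.09 ± 0.28, edgeR adjusted p 0.034). Near-identical family members can share reads, so the Vmn2r55 value is uncertain.

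Myh9 had the smallest p among the protein-coding genes that were higher at day 1. It encodes the heavy chain of non-muscle myosin IIA, the motor that contracts the actin cortex of endothelial cells, and lies at chr15:77760587-77842175 (minus strand, GRCm38). Its CPM were 345, 360, 286 and 317 at day 1 and 127, 155, 51.8 and 61.4 at day 14. The lowest day 1 plate thus lay well above the highest day 14 plate, and a UMI was present in 59 of 103 and 24 of 62 wells. The means were 327 ± 32.8 and 98.7 ± 50.1 CPM (SD, n = 4 plates each) and the log2 fold change was 1.53 ± 0.36 (edgeR adjusted p 0.0208). In cardiomyocyte wells it was at 16.4 and 11.4 CPM, and without the wells at 5% cardiomyocyte genes its log2 fold change was 1.62 (adjusted p 0.0281). Its direction held without any 1 plate, at 1.40 to 1.75, but the call was lost without day 1 replicates 1, 3 or 4 or day 14 replicates 5 or 8, with adjusted p up to 0.065. Without day 14 replicate 5, all the leading higher genes described here lost their calls, at log2 fold changes of 0.94 to 2.19.

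The genes of the endothelial rule are a description, since they chose the wells. Cdh5 had 1070, 1571, 1174 and 1192 CPM at day 1 and 748, 837, 621 and 338 CPM at day 14, and these did not overlap. Ly6c1, a surface antigen of capillary cells and some leukocytes, had 1238, 1259, 1397 and 1245 CPM at day 1 and 670, 966, 155 and 245 CPM at day 14. The other 6 overlapped: Pecam1 had 980 ± 183 and 906 ± 240 CPM, Egfl7 1082 ± 237 and 1116 ± 337, Kdr 487 ± 96.8 and 572 ± 282, Emcn 453 ± 176 and 580 ± 105, Cav1 2192 ± 180 and 1830 ± 580, and Fabp4 10610 ± 1895 and 8157 ± 1058 CPM.

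Genes of the systemic response to surgery were examined next. The acute phase and metallothionein list had 4 of 24 members tested and 0 past the threshold, which 2.80% of all genes tested passed. With 4 members tested, a count of 0 says little about the list. Mt1, a metal-binding protein that glucocorticoids and cytokines induce, had 92.7, 161, 364 and 369 CPM at day 1 and 134, 129, 51.8 and 61.4 CPM at day 14. The lowest day 1 plate lay within the day 14 range, and the log2 fold change of 1.23 ± 0.44 (95% interval 0.33 to 2.12) missed the threshold (edgeR adjusted p 0.132). Its sister gene Mt2 was too sparse to be tested, with 32 UMIs at day 1 and 5 at day 14. In the cardiomyocyte wells of the same plates Mt1 passed, at 727 and 192 CPM (log2 fold change 1.97, edgeR adjusted p 0.00033), and the difference of the 2 log2 fold changes, −0.85 ± 0.53, did not (unadjusted p 0.106).

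Lcn2, an acute phase protein that binds bacterial siderophores, had 0, 3, 75 and 3 UMIs at day 1 and 0 UMIs on every day 14 plate. The day 1 mean of 88.4 CPM rests on replicate 3, where 1 well held 50 of the 75 UMIs. A UMI was present in 15 of 103 wells at day 1 and in 0 of 62 at day 14. Summed over the groups, the day 1 level was at least 12.7-fold above the level that 3 counts at day 14 would give, but only 1.7-fold above it without replicate 3, which leaves 6 UMIs. Its share of wells with a UMI was lower than in the cardiomyocyte wells, where it was 23.7% at day 1 and 0.99% at day 14 at median depths of 2297.5 and 2070 UMIs, and the part of free RNA in either share was not tested. Lrg1, a secreted glycoprotein of the acute phase, had 2, 49 and 2 UMIs on day 1 replicates 2 to 4 and 9 UMIs at day 14, in 13.6% and 8.06% of wells, also below the 29.9% and 11.4% of the cardiomyocyte wells. Neither gene passed the filter for testing.

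The glucocorticoid list, genes that the glucocorticoid receptor induces, had 0 of 8 tested members past the threshold, which 2.80% of all genes tested passed. Its median log2 fold change was 0.08, and with 8 members tested a count of 0 says little about the list. Fkbp5, a chaperone that feeds back on the receptor, had 13 UMIs at day 1 and 4 at day 14, and Tsc22d3 (GILZ) had 55 and 14. Both were too sparse for the test, and their plates overlapped. The circadian clock list had 3 of 16 members tested, 0 past the threshold and a median of 1.10. Its Nr1d1, a repressor of the clock loop picked here for its small p, stood at 1.10 ± 0.36 (edgeR adjusted p 0.0886). The hour of collection is not given.

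The immediate early list holds transcription factors that respond within minutes to stress and to dissociation of tissue. It had 16 members tested, 0 past the threshold (2.80% of all genes tested passed) and a median of 0.06. Fos had 615, 1278, 748 and 1129 CPM at day 1 and 938, 1881, 983 and 828 CPM at day 14, and the log2 fold change was −0.26 ± 0.28 (95% interval −0.84 to 0.31). The heat shock list had 14 tested and 1 past the threshold, lower at day 1, beside 2.04% lower over all genes tested. This was Cryab, a small heat shock protein abundant in muscle, which had a log2 fold change of −1.02 (edgeR adjusted p 0.0494) and stood at −0.0017 without the wells at 5% cardiomyocyte genes. Hspa1a, the inducible Hsp70, was at 168 ± 79.7 and 166 ± 202 CPM and did not pass.

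**Figure D4:**
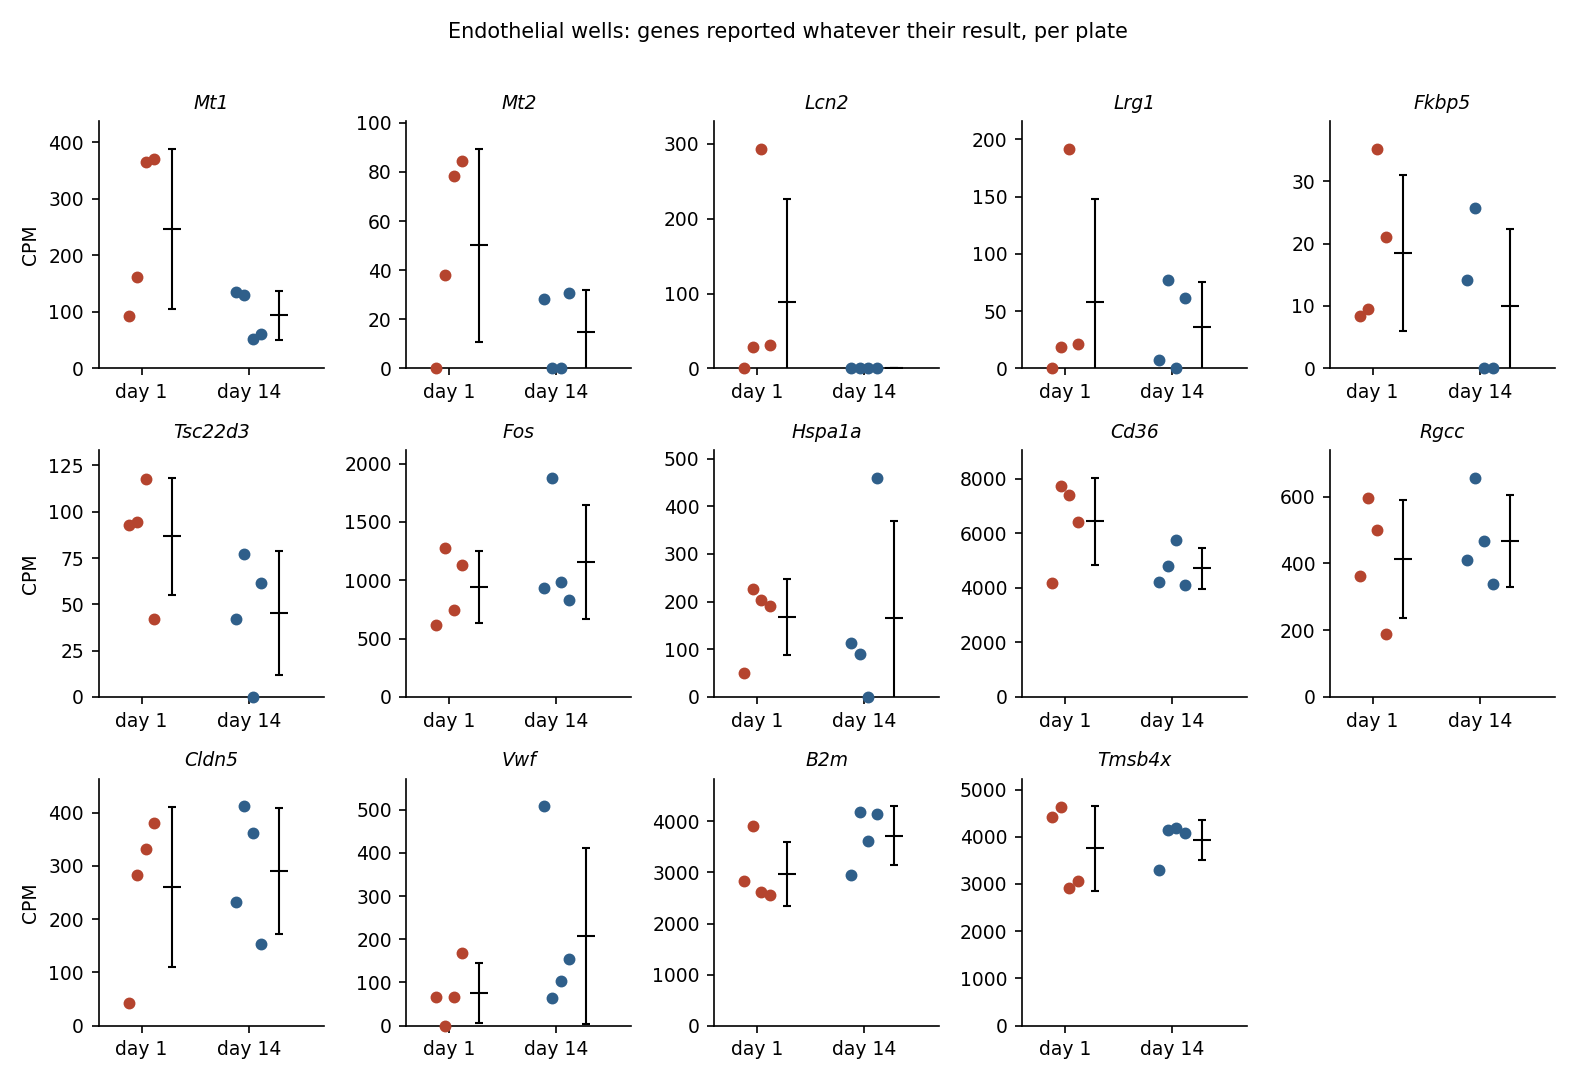
CPM per plate of 14 genes that are given whatever their result, each panel with its own axis from 0. Red points are the 4 day 1 plates, blue points the 4 day 14 plates, and the bars are the mean and SD, with the part of a bar below 0 not drawn. The days overlap in all 14 panels, with Mt1 at 92.7 to 369 CPM against 51.8 to 134, and Lcn2 and Lrg1 stand out on day 1 replicate 3.

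The lists of capillary function held no member past the threshold, which 2.80% of all genes tested passed. In the fatty acid uptake list, 14 of 20 members were tested, 3 were higher and 0 lower at an unadjusted p under 0.05 (6.21% and 9.02% of all genes tested), and the median log2 fold change was 0.44. Cd36 had 4169, 7734, 7428 and 6427 CPM at day 1 and 4210, 4819, 5745 and 4112 CPM at day 14. Its day 1 plates lay higher except replicate 1, and the log2 fold change was 0.53 ± 0.24 (edgeR adjusted p 0.269). It passed with DESeq2 (log2 fold change 0.63, adjusted p 0.048) and with wells thinned to 1000 UMIs (0.71, edgeR adjusted p 0.0385). Gpihbp1 was at 0.67 (edgeR adjusted p 0.243) and the metalloprotease inhibitor Timp4 at 0.78 (0.176), both named here for their small unadjusted p.

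Vessel growth and barrier genes were examined next. The VEGF, Notch and angiopoietin list had 21 tested members, 0 past the threshold, 1 higher and 1 lower at an unadjusted p under 0.05 and a median of 0.15, and the apelin receptor Aplnr, chosen after its value was seen, was at 1.22 ± 0.42 (edgeR adjusted p 0.117). The junction and barrier list had 22 tested, 0 past the threshold, 2 higher and 0 lower at an unadjusted p under 0.05 and a median of 0.01. Over all genes tested these shares were 6.21% higher and 9.02% lower, and 2.80% passed the threshold. Cldn5, the main claudin of endothelial tight junctions, had 42.1, 284, 333 and 380 CPM at day 1 and 233, 412, 362 and 153 CPM at day 14. The log2 fold change of −0.07 ± 0.45 had a 95% interval of −1.02 to 0.87. Rgcc, a cell cycle regulator used as a capillary marker, was at 412 ± 177 and 467 ± 137 CPM (log2 fold change −0.12, 95% interval −0.77 to 0.53).

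The coagulation and vasoregulation list had 10 tested and a median of 0.27, and the basement membrane and matrix list 17 tested and a median of 0.13. Both had 0 members past the threshold, which 2.80% of all genes tested passed. Vwf, the clotting glycoprotein that larger vessels and endocardium express most, had 67.4, 0, 66.5 and 169 CPM at day 1 and 508, 64.4, 104 and 153 CPM at day 14. Of 72 UMIs on day 14 replicate 1, 65 were in 1 well, and the log2 fold change of −1.71 ± 0.81 did not pass (edgeR adjusted p 0.368). Without that plate the gene was too sparse to be tested.

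Inflammatory and immune lists also held 0 members past the threshold, which 2.80% of all genes tested passed. Adhesion and inflammatory activation had 5 of 24 tested and a median of 0.06, and the interferon response 15 of 31 tested and a median of 0.15. MHC class I and peptide loading had 10 of 19 tested, with a median of −0.14 and 3 lower at an unadjusted p under 0.05, as were 9.02% of all genes tested. These 3 were the presenting molecules H2-T23, at −1.61 (edgeR adjusted p 0.0729), H2-D1, at −0.79 (0.0874), and H2-K1, at −0.65 (0.223). B2m, the light chain that pairs with them, had 2830, 3900, 2611 and 2564 CPM at day 1 and 2948, 4174, 3623 and 4142 CPM at day 14. The days overlapped and the log2 fold change was −0.24 ± 0.23 (95% interval −0.71 to 0.23). A UMI of B2m was present in 102 of 103 and 61 of 62 wells, against 27.2% and 31.2% of the cardiomyocyte wells.

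The cytoskeleton and thymosin list had 23 members tested and 0 past the threshold (2.80% of all genes tested passed), with a median of 0.16. Tmsb4x, the actin-sequestering thymosin β, had 4414, 4629, 2908 and 3060 CPM at day 1 and 3293, 4149, 4192 and 4081 CPM at day 14, and its log2 fold change was 0.02 ± 0.23 (95% interval −0.45 to 0.49). Actg1, the cytoplasmic γ-actin, was at −0.84 (edgeR adjusted p 0.0578) and passed without the wells at 5% cardiomyocyte genes (−0.99, 0.0331). The hypoxia and glycolysis list had 11 tested and a median of 0.01, and 1 member passed, beside 2.04% lower over all genes tested. This was Aldoa, the muscle aldolase, with a log2 fold change of −0.90 (edgeR adjusted p 0.0444) that was −0.43 (0.608) without the wells at 5% cardiomyocyte genes. Of the cytosolic ribosomal proteins, 72 were tested and 1 passed, a share near the 2.04% of all genes tested that were lower, and the median was 0.0049. The gene that passed was Rpsa, at 734 ± 114 and 1454 ± 238 CPM, with a log2 fold change of −0.87 (edgeR adjusted p 0.0472). Without those wells Rpsa was at −0.93 (edgeR adjusted p 0.0731). Rpsa has processed pseudogenes that can share its reads. Aldoa, Rpsa and Cryab each lost the call without 7 of the 8 plates in turn. The oxidative stress list (9 tested, median −0.06) and the cell cycle list (6 tested, median 0.0029) had 0 past the threshold.

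Markers of endothelial subtypes were sparse and overlapped between the days. Arterial markers made 0.0544 to 0.126% of the endothelial UMIs at day 1 and 0.0736 to 0.114% at day 14, venous markers 0.0265 to 0.0612% and 0.0311 to 0.0712%, with Ackr1 at 0, and lymphatic markers 0.00663 to 0.0133% and 0.00307 to 0.018%, with Ccl21a at 0. Endocardial markers, Vwf among them, made 0.00473 to 0.0232% at day 1 and 0.00902 to 0.0184% on the day 14 plates other than replicate 1, which had 0.105%. Neutrophil markers were low on both days but did not overlap, at 0.0275 to 0.0741% at day 1 and 0.0153 to 0.0258% at day 14, with S100a9 and Ly6g at 0 and 0 markers called. Their part in any result was not tested.

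The day difference was then set against that of the cardiomyocyte wells, 426 wells of the same 8 plates with 21 to 91 per plate. Their own comparison called 15 of 2019 genes (0.743%), 5 higher and 10 lower at day 1, and 2 genes were called in the same direction in both classes. In the test of the interaction of class and day, with the plate as a block, edgeR called 0 of 3191 genes (0%), 197 had an unadjusted p under 0.05, and the smallest adjusted p was 0.154. Actc1, which helped to choose the cardiomyocyte wells, was at 5758 and 14932 CPM there with a log2 fold change of −1.27, and the endothelial difference exceeded it by −0.94 ± 0.61 (unadjusted p 0.121). Eno3 gave −1.36 ± 0.45 (unadjusted p 0.00238, adjusted p 0.623). Without day 1 replicate 4, 2 genes passed, Beta-s and Vwf. No gene was thus shown to differ between the days in endothelial wells more than in cardiomyocyte wells with all plates.

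The share of endothelial wells among all wells with at least 1000 UMIs was 20.2, 27.6, 24.8 and 23.1% on the day 1 plates (24 of 119, 27 of 98, 34 of 137 and 18 of 78 wells). On day 14 replicates 1, 5, 6, 7 and 8 it was 21.9, 27.7, 20, 21.6 and 10.1% (28 of 128, 18 of 65, 2 of 10, 8 of 37 and 8 of 79 wells). The days overlapped, and the lowest plate was day 14 replicate 8, with a 95% Wilson interval of 5.22 to 18.7%. The means were 23.9 ± 3.10% (SD, n = 4 plates) and 20.3 ± 6.37% (SD, n = 5 plates), a difference of 3.64 percentage points (two-sided exact permutation test over plates, p = 0.349, where the smallest possible p is 0.0159). Without day 14 replicate 8 the difference was 1.11 points. Without the wells at 5% cardiomyocyte genes it was 6.10 points, and the p of the exact test was 0.0476. With replicates 3 and 4 of day 14 added it was 8.81 points (exact permutation p 0.133). With wells of at least 2000 UMIs it was −14.6 points (exact permutation p 0.587), and this sign rested on day 14 replicate 6, where 1 of 1 well was endothelial, since it was 0.11 points without that plate (exact permutation p 0.971).

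**Figure D5:**
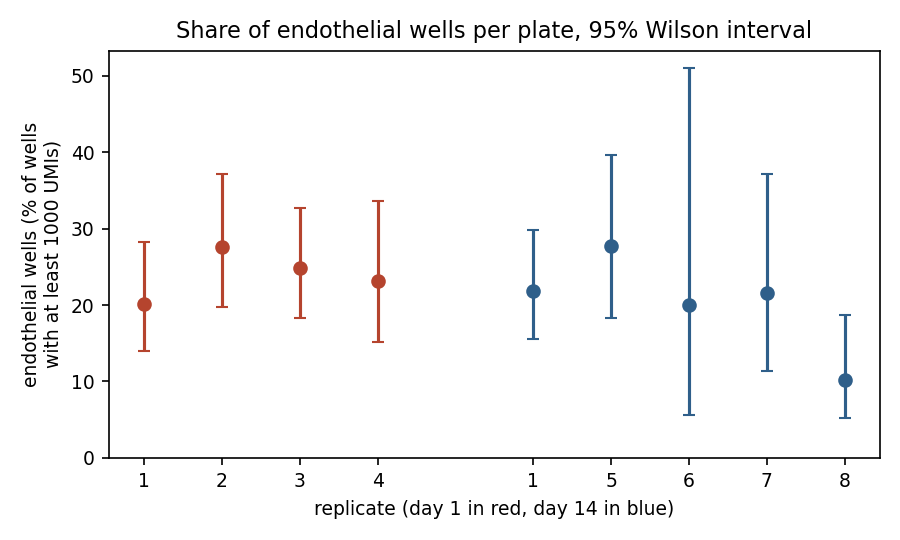
Share of endothelial wells in percent of the wells with at least 1000 UMIs on each plate, day 1 in red and day 14 in blue. Points are plates and bars are 95% Wilson intervals, which cover counting error only. The 4 day 1 plates stand at 20.2 to 27.6% and 4 of the 5 day 14 plates at 20 to 27.7%, with replicate 8 at 10.1%.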

How the data were processed

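The authors deposited, for each plate, a table of UMI counts per gene and well, made by mapping reads with BWA to GRCm38/mm10. The gene annotation, the treatment of multi-mapping reads and the BWA version are not given in the sources used here. The deposited counts are whole numbers of at most 4096, the number of different UMIs of 6 bases. As in the study's methods, mitochondrial genes were discarded, and spike-in RNA was left out too.

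Counts of the endothelial wells were summed per plate, and plates with at least 5 such wells entered the fit. Genes were filtered with filterByExpr, scaled with TMM and tested with the quasi-likelihood test of edgeR 4.0.16 in R 4.3.3 over all genes that passed, with a Benjamini-Hochberg adjusted p of 0.05 as the threshold. The common biological coefficient of variation was 0.262. The plates, and not the wells, were the replicates. Cardiomyocyte wells held at least 1000 UMIs, at least 5% of them from Myh6, Actc1, Tnnt2, Tnni3, Tnnc1, Myl2, Myl3, Tpm1, Mb, Ckm and Pln, and under 0.6% from the endothelial genes. Shares of wells were compared with exact permutation tests (scipy 1.17.1). The total UMIs of the 9 sham plates ranged from 176614 to 3341774. Wilson intervals and lower limits cover counting error only, and intervals of log2 fold changes come from the edgeR standard errors, which include the spread between plates. No doublet caller was run, and wells with RNA of 2 cell types were kept unless stated.

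The 10 higher and 10 lower genes with the smallest p, up to 4 called members of each gene list, the genes of the endothelial rule and 14 genes given whatever their result are named, and others are said to be chosen after their values were seen. Items withheld from the text are not reported here. The members and the lists were chosen with earlier results of these data known. Coordinates come from the GENCODE annotation of GRCm38 and the promoter from RefSeq. The scripts were tested on simulated counts. Alternatives were DESeq2 1.42.0, other scalings and filters, other limits for wells, thinning every well to 1000 UMIs, a fit with all groups, and leaving out 1 plate at a time. Day 14 replicate 6 with its 2 wells, the cardiomyocyte share as a covariate, the Lcn2 value without 1 plate and the share of wells of 2000 UMIs without the plate holding 1 such well were added after seeing the data.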

Additional observations from a re-analysis of the deposited data

Results flagged for a closer look

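In 79 groups of plates, 5 values stood apart from the others of their group by Dixon's test, which chance does in about 1 of 20 groups. Lcn2 on day 1 replicate 3 was at 293.5 CPM, with the other 3 plates at 0 to 31.7. Lrg1 on the same plate was at 191.8 CPM, with the others at 0 to 21.1. Gm7609 on day 14 replicate 1 was at 176.3 CPM, above 90.2 to 104 on the other 3. Fos on day 14 replicate 5 was at 1881 CPM, above 828 to 983. Tmsb4x on day 14 replicate 1 was at 3293 CPM, below 4081 to 4192.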

How the results depend on the processing

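The count of 55 called genes stayed within 1.5 times with DESeq2 (42 genes, 20 higher and 22 lower at day 1, 32 of them shared), with RLE scaling (55), with filterByExpr at a minimum count of 3 (58, 27 higher and 31 lower), with wells of 500 UMIs (64), with replicate 2 in place of 7 (50) and without Rn45s (55). It moved to 27 with no filter on low counts (19 higher and 8 lower), 21 with wells of at least 2000 UMIs, 22 with an endothelial limit of 1.2% (12 higher and 10 lower), 10 without wells at 5% cardiomyocyte genes, 93 with at least 10 wells per plate, 20 of 292 genes with thinned wells (14 higher and 6 lower), 1 with all groups in the fit, 16 with day 14 replicate 6 added (7 higher and 9 lower) and 2 with the cardiomyocyte share as a covariate. Without 1 plate it ranged from 6 to 98. Settings with fewer plates, wells or UMIs gave the test less data. The count fell in some of them and rose in others, as to 93 with at least 10 wells per plate. The cause of these moves was not tested. The share of endothelial wells differed by 0.634 points at 500 UMIs, −14.6 points at 2000 UMIs, where day 14 replicate 6 held 1 well, 0.11 points at 2000 UMIs without that plate, 5.36 points at a limit of 1.2%, 8.81 points with day 14 replicates 3 and 4 added, 6.10 points without wells at 5% cardiomyocyte genes and 1.11 to 5.50 points without 1 plate. The interaction called 0 genes in each alternative except without day 1 replicate 4, so its range without 1 plate was 0 to 2.

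Over 754 values of 34 named genes in 23 alternatives, 499 kept direction and side of the threshold, 228 lost a call, 2 gained one and 25 changed sign. Sign changes with the covariate were Cryab 0.042, Sdhb 0.29, Fos 0.063, Rgcc 0.30, Cldn5 0.12 and Tmsb4x −0.15. Without 1 plate Fos ranged from −0.40 to 0.10, Hspa1a from −0.044 to 0.92, Rgcc from −0.26 to 0.12, Cldn5 from −0.27 to 0.29 and Tmsb4x from −0.064 to 0.13. Without a filter Rgcc was 0.033 and Cldn5 0.075. Without wells at 5% cardiomyocyte genes Hspa1a was −0.096 and Tmsb4x −0.16. Tmsb4x was −0.013 at 500 UMIs and −0.13 at a limit of 1.2%. Cldn5 was 0.0040 with DESeq2, 0.087 with replicate 2, 0.027 with all groups and 0.022 with replicate 6. Each of these genes except Cryab and Sdhb missed the threshold with all plates. Actc1 kept its call in 21 of 23 alternatives, Atp5f1 in 20 of 21 and Gm10785 in 20 of 23. Adding day 14 replicates 3 and 4 to the gene test gave no value, since they hold 1 and 0 endothelial wells. No paired analysis was possible because the labels give no pairing between day 1 and day 14 plates, and replicate numbers define none. Depth limits the shallow plates most, since day 14 replicates 7 and 8 hold 19322 and 32591 endothelial UMIs.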
